A study of Mus musculus with 241 samples.

Results

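Flt3, Kit and Csf1r encode 3 receptor tyrosine kinases of blood progenitors. They were taken by symbol from every table of the study, and make up 3 of the 24506 genes of the bulk table, 3 of the 27998 genes of the droplet single-cell matrices and 3 of the 43346 genes of the plate single-cell table. FLT3 is the receptor for FLT3 ligand and marks lymphoid-primed and dendritic progenitors. KIT is the receptor for stem cell factor and supports the survival and division of stem cells, early T-lineage progenitors and mast cells. CSF1R binds CSF1 and IL-34 and is best known from monocytes and macrophages. All are single-pass receptors of the platelet-derived growth factor receptor class, in which ligand binding pairs 2 receptor chains, the chains phosphorylate each other, and PI3 kinase, RAS and STAT5 signalling follows. In the thymus, early T-lineage progenitors (ETP) lack CD25, the interleukin 2 receptor alpha chain encoded by Il2ra. They become DN2a cells when CD25 appears, and the transcription factor Bcl11b marks commitment to the T lineage.

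All cells came from the thymus of C57BL/6 mice and were sorted as live, lineage-negative (Lin- 7AAD-) CD44+ Kit+ cells, so surface Kit was a gate of every group. In the bulk table (mm10), Flt3 is a gene model on the minus strand of chromosome 5 from 147330742 to 147400489, and Kit one on the plus strand of chromosome 5 from 75574987 to 75656721. The bulk RNA-seq mice were Bcl11byfp/yfp, carrying a YFP reporter at Bcl11b, and the added gates gave Flt3+ ETP (CD25- Flt3+, 2 libraries), Flt3- ETP (CD25- Flt3-, 2 libraries), total ETP (CD25-, 2 libraries), Bcl11b- DN2a (CD25+ YFP-, 3 libraries) and Bcl11b+ DN2a (CD25+ YFP+, 3 libraries). Surface Flt3 was therefore a gate of the first pair of groups and of no other. The 2 droplet (10x) libraries and the plate (C1) cells came from wild-type mice and held the whole CD44+ Kit+ gate. The labels give neither the age nor the number of mice and do not tie replicates to separate animals, so a p-value speaks of how far these libraries scatter, and that scatter may be technical in part.

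The 12 bulk libraries held between 21206645 and 38537040 reads on gene models. Il2ra stood at 1.02 to 18.4 FPKM (fragments per kilobase of gene model, scaled to library depth) in the 6 ETP libraries and at 183.6 to 301 in the 6 DN2a libraries, as the gates ask. The first Flt3+ and the first Flt3- ETP library stood apart from the other ETP libraries. They held Bcl11b at 5.77 and 4.54 FPKM against 0.028 to 0.167 in the other 4 ETP libraries, and the T-cell receptor complex gene Cd3g at 52.5 and 39.9 FPKM against 0.710 to 5.42. The first Bcl11b- DN2a library, of the same series of library numbers, was also high in Cd3g (19.8 FPKM against 0.801 and 4.77 in its group). It held Bcl11b at 6.11 FPKM against 3.08 and 0.596. That library stayed in the fits that left out both of these ETP libraries. One library each of Flt3+ ETP, Flt3- ETP, Bcl11b- DN2a and Bcl11b+ DN2a was made with SMART-Seq v4 and the other 8 with NEBNext Ultra. A preparation term was therefore part of the main fit. Fits with a block held the block in its place, with the SMART-Seq v4 libraries as a level of their own. Fits without the term are given as alternatives.

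Of the 3 genes, Flt3 differed most between the ETP and the DN2a groups. It fell by more than an order of magnitude between ETP and DN2a and was below 1 FPKM once Bcl11b was on. In bulk samples, fewer cells with a transcript and less of it per cell cannot be told apart. In Flt3+ ETP it stood at 78.5 and 61.9 FPKM. In total ETP, which was not gated on Flt3, it stood at 58.01 and 47.3 FPKM. Flt3- ETP held 19.3 and 24.9 FPKM, so cells sorted as lacking the surface protein still carried the transcript well above the DN2a level. Bcl11b- DN2a held 1.12, 2.73 and 0.735 FPKM. In Bcl11b+ DN2a the values were 0.123, 0.263 and 0.382 FPKM. The order among the ETP groups is the one that the gate on surface Flt3 sets. Flt3+ and total ETP differed by little more than their spread (70.2 ± 11.7 and 52.7 ± 7.54 FPKM, SD, n = 2 each). Every Bcl11b- DN2a library lay below every ETP library, and every Bcl11b+ library below every Bcl11b- one. How many of all genes were so separated was not counted.

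**Figure D1:**
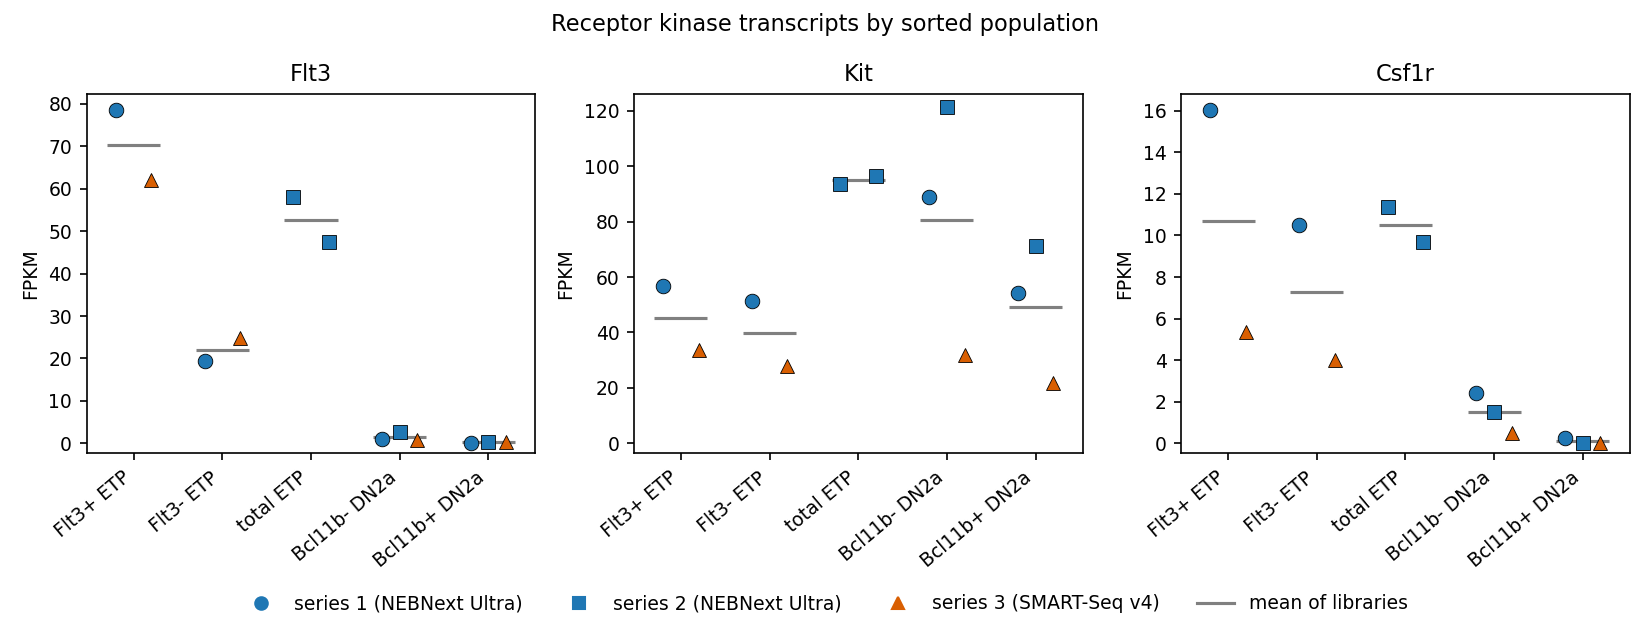
FPKM of Flt3, Kit and Csf1r in each of the 12 bulk libraries, by sorted population. Each point is a library (colour for the library preparation, shape for the series of library numbers) and the grey line is the group mean. Flt3 steps down from 78.5 FPKM in Flt3+ ETP to 0.123 FPKM in Bcl11b+ DN2a, and Csf1r also falls from ETP to DN2a. Kit overlaps between most populations, with the SMART-Seq v4 libraries lowest. Kit in total ETP lies above both Flt3 fractions and Bcl11b+ DN2a.

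Differences were tested with limma on log2(FPKM + 1) over the 12112 genes above 1 FPKM in at least 2 libraries, and a call needed a Benjamini-Hochberg adjusted p under 0.05. On this scale the changes of low genes are understated. From Flt3- ETP to Bcl11b- DN2a, Flt3 fell by 3.28 ± 0.28 (SE, limma adjusted p = 9.84e-05), in a comparison that called 3.97% of all genes. The gate acted here only on the ETP side, where it removed the cells with most surface Flt3. Against total ETP, where no gate touched Flt3, it fell by 4.44 ± 0.28 in Bcl11b- DN2a (limma adjusted p = 1.9e-05), with 15.6% of all genes called. From Bcl11b- to Bcl11b+ DN2a the difference was -0.94 ± 0.25, which missed the threshold (limma adjusted p = 0.0807, 95% interval -1.48 to -0.39), although the groups did not overlap. With the replicate number as a block, where the unnumbered SMART-Seq v4 libraries were counted as 1 number, it passed (limma adjusted p = 0.0384). That comparison called 2.79% of all genes. With a pseudocount of 0.1 in place of 1, the same difference was -2.07 and passed (limma adjusted p = 0.0169), and an edgeR quasi-likelihood test on the recovered reads gave -2.46 (adjusted p = 0.0226). Without the third Bcl11b- library it was -1.20 and passed narrowly (limma adjusted p = 0.0482).

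The differences in Flt3 that the gate itself sets are given as a description. The log2 difference of Flt3- from Flt3+ ETP was -1.63 ± 0.30 (SE), in a comparison that called 0.685% of all genes. That of Bcl11b+ DN2a from Flt3+ ETP was -5.84 ± 0.28, in one that called 11.3%. Within the library-number series that hold both ETP fractions, the first difference was -1.97 and -1.28.

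Csf1r also fell from ETP to DN2a, and it was lower than Flt3 in every ETP library. In the first library of each DN2a group it was the higher, with Flt3 at 0.457 and 0.462 times Csf1r. Its values were 16.03 and 5.35 FPKM in Flt3+ ETP, 10.5 and 4.01 in Flt3- ETP, and 11.4 and 9.68 in total ETP. The 3 ETP groups overlapped, and in each Flt3 fraction the SMART-Seq v4 library was the lower. Bcl11b- DN2a held 2.45, 1.51 and 0.511 FPKM, below every ETP library. Bcl11b+ DN2a held 0.266, 0 and 0.012 FPKM, below every Bcl11b- library.

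Csf1r fell by 1.84 ± 0.27 on the log2 scale from Flt3- ETP to Bcl11b- DN2a (limma adjusted p = 0.00357) and by 1.99 ± 0.28 from total ETP to Bcl11b- DN2a (limma adjusted p = 0.00153). Without both ETP libraries that stood apart, the first difference was -1.46 and lost its call (limma adjusted p = 0.119), and without that Flt3- ETP library alone it was -1.62 (adjusted p = 0.0922). The second was -2.10 and kept its call (limma adjusted p = 0.00371). From Bcl11b- to Bcl11b+ DN2a, Csf1r fell by 1.12 ± 0.24 (limma adjusted p = 0.0319), and in the 3 library series the difference was -1.44, -1.32 and -0.58. This call was fragile: it was lost without the first or the third Bcl11b- library (limma adjusted p = 0.162 and 0.102) and without the first or the second Bcl11b+ library (0.0989 and 0.0892). From Flt3+ ETP to Bcl11b+ DN2a, Csf1r fell by 3.41 ± 0.27 (limma adjusted p = 1.32e-05). Between Flt3- and Flt3+ ETP the difference was -0.45 ± 0.30 (limma adjusted p = 0.434, 95% interval -1.11 to 0.20), and leaving out 1 library moved it from -0.80 (without the second Flt3+ library) to -0.11 (without the first).

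Kit overlapped between most populations, but total ETP lay above both Flt3 fractions and Bcl11b+ DN2a, pairs that were not tested. In the 5 comparisons tested, no Kit difference passed when libraries were not paired. Its values were 56.7 and 33.6 FPKM in Flt3+ ETP, 51.3 and 28.04 in Flt3- ETP, and 93.6 and 96.5 in total ETP. Bcl11b- DN2a held 88.9, 121.3 and 31.8 FPKM, and Bcl11b+ DN2a held 54.4, 71.1 and 21.7. The low value of each group with 1 SMART-Seq v4 library was that library.

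In the fit, SMART-Seq v4 libraries lay below NEBNext libraries by a log2 difference of -1.24 ± 0.16 for Kit, -0.88 ± 0.20 for Csf1r and -0.14 ± 0.20 for Flt3 (SE), with a median of 0.0098 over all genes. With that term in the fit, Kit differed by -0.20 ± 0.25 between Flt3- and Flt3+ ETP (limma adjusted p = 0.688, 95% interval -0.74 to 0.35). It differed by 0.66 ± 0.23 between Bcl11b- DN2a and Flt3- ETP (limma adjusted p = 0.122, 95% interval 0.16 to 1.16), and by 0.39 without the first Flt3- library and 0.24 without both ETP libraries that stood apart. The difference between Bcl11b+ and Bcl11b- DN2a was -0.67 ± 0.20 (limma adjusted p = 0.141, 95% interval -1.11 to -0.22). Bcl11b+ DN2a was the lower in each of the 3 library series, by -0.70, -0.76 and -0.53. The titles number the NEBNext DN2a libraries, and the unnumbered SMART-Seq v4 libraries were counted as 1 further number. With the number as a block this difference passed (limma adjusted p = 0.0272). The block called 4.81% of all genes. Against total ETP, Bcl11b- DN2a differed by -0.02 ± 0.23 (limma adjusted p = 0.959, 95% interval -0.53 to 0.49), and Bcl11b+ DN2a differed from Flt3+ ETP by -0.20 ± 0.23 (limma adjusted p = 0.676, 95% interval -0.70 to 0.30). Total ETP held more Kit than either Flt3 fraction, but its libraries belong to a number series that holds neither fraction, so series and population cannot be told apart there.

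**Figure D2:**
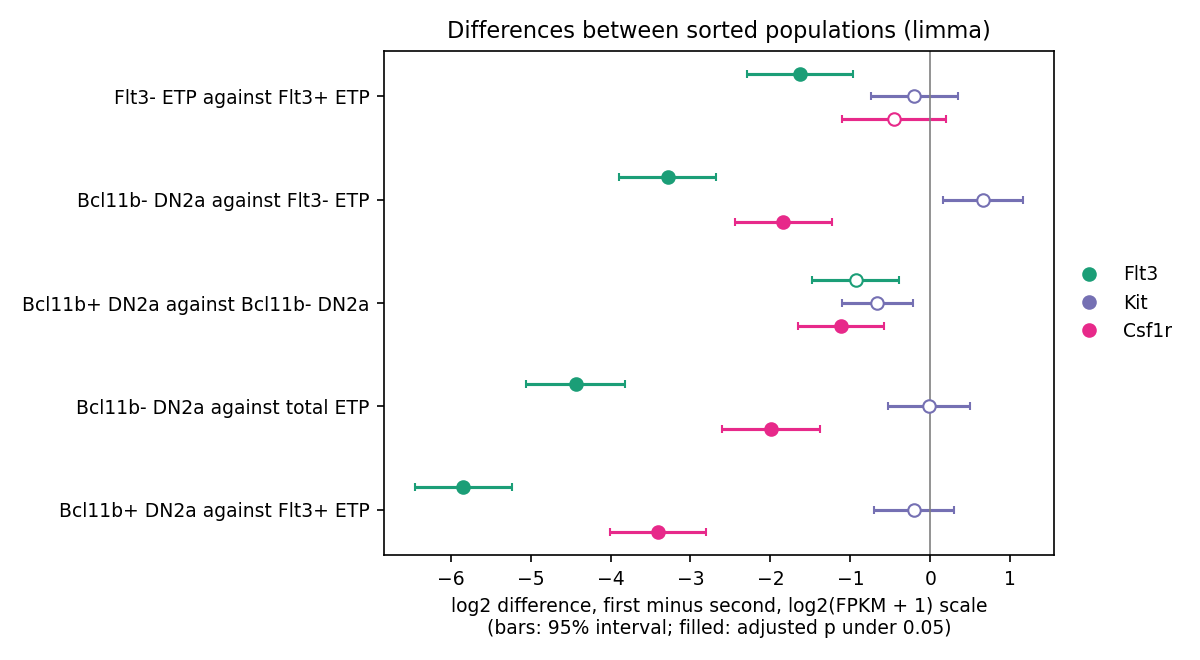
Log2 differences of Flt3, Kit and Csf1r, from log2(FPKM + 1), in 5 comparisons of sorted populations, with 95% limma intervals, where filled points have an adjusted p under 0.05. All Flt3 and Csf1r differences lie below 0, while those of Kit lie between -0.67 and 0.66 and none is filled in this unpaired fit.

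The ratio of Kit to Flt3, as levels per length, grew from ETP to DN2a. Kit was 0.54 and 0.72 times Flt3 in the Flt3-gated Flt3+ ETP, 1.13 to 2.66 times in the other 4 ETP libraries, 43.3 to 79.6 times in Bcl11b- DN2a and 56.7 to 442 times in Bcl11b+ DN2a. With the preparation difference removed, the log2 levels of Flt3 and Csf1r had a Pearson correlation across the 12 libraries of 0.960, against 0.124 for Flt3 with Kit and 0.0638 for Kit with Csf1r. These describe 12 libraries that share 5 populations and carry no test.

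The same measure of likeness over the 12 libraries was taken for genes with a mean log2(FPKM + 1) of at least 2 and no provisional name. Among these, the 5 genes nearest to Flt3 were Prdx4 (0.990), Il10rb (0.988), Gfra1 (0.986), H2-Ob (0.985) and Hoxa9 (0.981). Gfra1 encodes a receptor for glial cell line-derived neurotrophic factor, and Hoxa9 a homeobox factor of stem and progenitor cells. Those nearest to Csf1r were Fam129b (0.981), Sulf2 (0.973), Fam102a (0.969), Egfl7 (0.967) and Degs2 (0.967). The genes nearest to Kit were less alike: Manba (0.940), Dgkd (0.921), Ppifos (0.918), Phka2 (0.918) and Appl2 (0.913).

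Of 6 ligand genes of this receptor class, 3 were measured above the filter: Flt3l, Csf1 and Pdgfa. Kitl, which encodes stem cell factor, reached at most 0.236 FPKM and Il34 at most 0.213 FPKM in any library. Flt3l moved against its receptor. It stood at 1.29 to 2.49 FPKM in Flt3+ ETP, 1.69 to 1.99 in Flt3- ETP, 1.30 to 1.61 in total ETP, 2.999 to 4.89 in Bcl11b- DN2a and 4.33 to 6.73 in Bcl11b+ DN2a. Every DN2a library was above every ETP library. Flt3l rose by 0.85 ± 0.24 from total ETP to Bcl11b- DN2a (limma adjusted p = 0.0389) and by 1.15 ± 0.24 from Flt3+ ETP to Bcl11b+ DN2a (limma adjusted p = 0.00759). These 2 calls held under quantile and median-ratio scaling. Csf1 stayed between 0.007 and 2.27 FPKM over all libraries, and no ligand was called lower in any of the 5 comparisons.

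The signalling genes next to the receptors were a list of 37 tested of 38, among them adaptors, SRC-family kinases, PI3 kinase subunits and STATs. None was called between the Flt3 fractions of ETP, where 0.421% of all genes were called higher and 0.264% lower (median log2 difference -0.20, all genes -0.15). Quantile and median-ratio scaling brought that median of all genes to -0.03 and -0.02, so the small negative medians of this comparison are read relative to it. In Bcl11b- DN2a against Flt3- ETP, 4 rose and 0 fell, against 1.62% of all genes called higher and 2.35% lower (median 0.35, all genes 0.12, or 0.05 and 0.01 after the same scalings). Stat5a and Stat5b, the STATs that FLT3 and KIT use most, rose by 0.81 and 0.78 (limma adjusted p = 0.0116 and 0.0245). The others were Stat3 by 0.89 and the PI3 kinase regulatory subunit Pik3r2 by 1.08 (limma adjusted p = 0.0181 and 0.0122).

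In Bcl11b+ against Bcl11b- DN2a, 0 rose and 4 fell, against 1.15% of all genes called higher and 1.64% lower (median -0.04, all genes -0.04). Among those that fell were Fes by 1.01, Syk by 0.72 and Lyn by 0.68 (limma adjusted p = 0.00982, 0.0224 and 0.025), non-receptor tyrosine kinases with a known place in myeloid and B cells. Against total ETP, 9 rose and 0 fell in Bcl11b- DN2a, with 9.78% of all genes called higher and 5.87% lower (median 0.14). From Flt3+ ETP to Bcl11b+ DN2a 2 rose and 4 fell, with 3.41% of all genes called higher and 7.9% lower (median 0.07). After quantile scaling this was 3 and 3, and after median-ratio scaling 4 and 4. Pdgfrb was the one other measured receptor of the class. It held 32.2 and 8.35 FPKM in Flt3- ETP, 31.7, 32.4 and 5.55 in Bcl11b- DN2a, and 19.7, 18.2 and 3.66 in Bcl11b+ DN2a. It fell by 0.65 ± 0.12 from Bcl11b- to Bcl11b+ DN2a (limma adjusted p = 0.0164), and the lowest value of each of these groups was again the SMART-Seq v4 library.

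Of 18 genes that restrain these receptors, all 18 were tested. None was called between Flt3 fractions. In Bcl11b+ against Bcl11b- DN2a 1 rose and 1 fell, with 1.15% and 1.64% of all genes (median -0.06). Socs2, a suppressor of cytokine signalling that STAT5 induces, rose by 1.19 and Sh2b3, the adaptor LNK that limits KIT signalling, fell by 0.68 (limma adjusted p = 0.0122 and 0.0383). From Flt3+ ETP to Bcl11b+ DN2a 2 rose and 3 fell, with 3.41% of all genes called higher and 7.9% lower (median -0.11). There Inpp5d, the lipid phosphatase SHIP1, fell by 1.24 and Sh2b3 by 1.23 (limma adjusted p = 0.000597 and 0.000676), while Socs2 rose by 1.27 (0.00493).

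Of 26 transcription factors known to act on these receptor genes 23 were tested, and 0 were called between Flt3 fractions (median -0.22). In Bcl11b- DN2a against Flt3- ETP 2 rose and 5 fell (median 0.09), where 1.62% of all genes were called higher and 2.35% lower. The 5 that fell were Lmo2 by 2.15, Cebpa by 2.00, Gata2 by 1.48, Hoxa9 by 1.28 and Meis1. The 2 that rose, Gata3 and Runx1, are T-lineage factors in thymic cells. After quantile scaling 0 rose and 5 fell. In Bcl11b+ against Bcl11b- DN2a 0 rose and 7 fell, beside 1.15% of all genes called higher and 1.64% lower (median -0.23): Irf8 by 1.91, Lmo2 by 1.76, Spi1 by 1.502, Bcl11a by 1.12, and Hoxa9, Mef2c and Meis1 (limma adjusted p = 0.000296, 0.00181, 0.00237 and 0.00127 for the first 4). From Flt3+ ETP to Bcl11b+ DN2a 3 rose and 9 fell, or 3 and 7 after either scaling, where 3.41% of all genes were called higher and 7.9% lower.

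Spi1, which encodes PU.1, an activator of Csf1r and Flt3, stood at 60.1 to 62.5 FPKM in Flt3+ ETP, 68.7 to 76.995 in Flt3- ETP, 30.7 and 39.1 in total ETP, 50.8 to 62.4 in Bcl11b- DN2a and 13.2 to 25.8 in Bcl11b+ DN2a. The Bcl11b- DN2a libraries lay above both total ETP libraries and below both Flt3- ETP libraries, and the Bcl11b+ libraries lay below all others. Lmo2 stood at 28.8 to 69.4 FPKM in the 6 ETP libraries, 5.21 to 7.97 in Bcl11b- DN2a and 1.00 to 1.52 in Bcl11b+ DN2a.

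Of 22 other cytokine and growth factor receptors of progenitors, 19 were tested. Il6st, the shared IL-6 receptor chain gp130, was the one member called between Flt3 fractions and was lower in Flt3- ETP by a log2 difference of -0.91 ± 0.17 (limma adjusted p = 0.0427), a call that quantile scaling removed. From Flt3+ ETP to Bcl11b+ DN2a 2 rose and 7 fell, with 3.41% of all genes called higher and 7.9% lower (median -0.53, all genes -0.03). Il7r, the IL-7 receptor alpha chain, rose by 2.29, from 8.66 to 9.03 FPKM up to 35.2 to 59.2 (limma adjusted p = 3.55e-05). Csf2rb, the shared chain of the GM-CSF receptor, fell by 2.17 and Il6ra by 1.83 (limma adjusted p = 5.38e-05 and 0.000135). Il7r was lowest in Flt3- ETP (3.32 and 4.44 FPKM).

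Markers of other cells moved with these comparisons. The summed level of 12 granulocyte genes was 259 to 382 FPKM in Flt3+ ETP, 990 to 1906 in Flt3- ETP, 494 to 517 in total ETP, 181.5 to 278 in Bcl11b- DN2a and 35.1 to 102.99 in Bcl11b+ DN2a. Of these 12 genes, 10 were called higher in Flt3- than in Flt3+ ETP, where 0.421% of all genes were. All 12 were called lower in Bcl11b- DN2a than in Flt3- ETP, where 2.35% of all genes were. The summed level of 14 monocyte, macrophage and dendritic genes was 54.3 to 71.7, 39.6 to 54.4, 39.5 to 41.9, 9.72 to 28.02 and 5.34 to 15.3 FPKM in the same order, which is the order of Csf1r only in part. Of the 14 genes, Ctss (cathepsin S) gave most of that sum in ETP, with 21.1 to 58.7 FPKM there and 0.763 to 3.89 in DN2a. Itgax reached 15.1 FPKM in Bcl11b- DN2a and Itgam 5.31 in total ETP. The genes under the filter included Cx3cr1, which reached 1.08 FPKM, and Adgre1 (F4/80), Siglech and Fcgr1, which reached 0.5, 0.290 and 0.066. The summed level of 8 mast cell and basophil genes, cells that also carry Kit, was 10.5 to 36.8, 79.3 to 274, 62.2 to 77.4, 101.6 to 503 and 177.03 to 898 FPKM, highest in the SMART-Seq v4 library of each group that had one. Cpa3 alone gave 98.7 to 482 FPKM of it in Bcl11b- and 176.3 to 893 in Bcl11b+ DN2a. Of the 6 tested genes, 5 were called higher in Flt3- than in Flt3+ ETP, beside the same 0.421% of all genes. Against Flt3- ETP, Bcl11b- DN2a had 1 called higher, Cpa3, and 4 lower, beside 1.62% and 2.35% of all genes. Against total ETP it also had 1 called higher, Cpa3, and 4 lower, beside 9.78% and 5.87%. In Bcl11b+ against Bcl11b- DN2a 1 was called higher and 1 lower, beside 1.15% and 1.64%. The part of these cells in the results was not tested.

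The 2 droplet libraries held 5006 and 8867 cell barcodes, of which 57 sequences occur in both. Cells were kept from 1000 detected genes upwards if mitochondrial genes gave less than 10% of their UMIs (unique molecular identifiers, each a counted transcript molecule). This left 4878 and 8434 cells, with medians of 8489 and 6137 UMIs. They are 2 samples of 1 gate, so the values are descriptions. Their intervals are exact 95% ones and cover counting error only. For shares of cells, each cell was thinned to 4000 UMIs, which left 4628 and 6978 cells. In the first and second library Kit had a UMI in 32.2% and 32.8% of the thinned cells, Flt3 in 5.36% and 5.98%, and Csf1r in 1.49% and 2.04%. Unthinned, the shares were 52.7% and 44.4%, 10.5% and 8.50%, and 3.03% and 2.96%.

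Cells were placed by whether the thinned counts held a UMI of Il2ra and of Bcl11b, the genes behind the CD25 and YFP gates. As CPM (the gene's part of all UMIs in those cells, scaled to a fixed total), Flt3 was 26.6 and 27.9 in cells with neither gene, 3.56 and 4.58 with Il2ra alone, and 0.504 and 1.17 with both. Csf1r was 6.14 and 7.23, 1.87 and 2.21, and 0.336 and 0.909 in the same classes. Both libraries gave the same order for these genes as the sorted populations. Kit was 92.5 (88.5 to 96.6) and 99.5 (95.7 to 103.4) with neither gene, 114.9 (108.9 to 121.2) and 120.5 (114.6 to 126.7) with Il2ra alone, and 78.5 (71.5 to 85.95) and 90.7 (84.1 to 97.7) with both. Of these classes, Kit was therefore highest in the middle one in both libraries, with intervals that did not meet those of either neighbour. Cells with Bcl11b alone held Kit at 77.1 and 73.1. The classes with Bcl11b were not split by cluster. Among the clusters described below that were rich in Bcl11b, Kit was 137.3 and 126.8 in a CD25+ DN2-like one and 14.04 and 16.9 in a committed T-like one.

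The order also held by amount of Il2ra. Flt3 was 24.3 and 24.9 CPM in cells with 0 Il2ra UMIs, 4.70 and 5.46 with 1, 0.945 and 1.61 with 2 to 3, and 0.407 and 0.391 with 4 or more. Csf1r went from 5.65 and 6.53 to 2.29 and 2.57, then 0.810 and 1.11, then 0 and 0.391. Kit went from 90.9 and 96.4 to 103.9 and 105.2, then 100.99 and 110.95, then 104.3 and 119.1. In cells with a single Il2ra UMI Flt3 was thus already low while Kit was not lower than in cells with none.

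**Figure D3:**
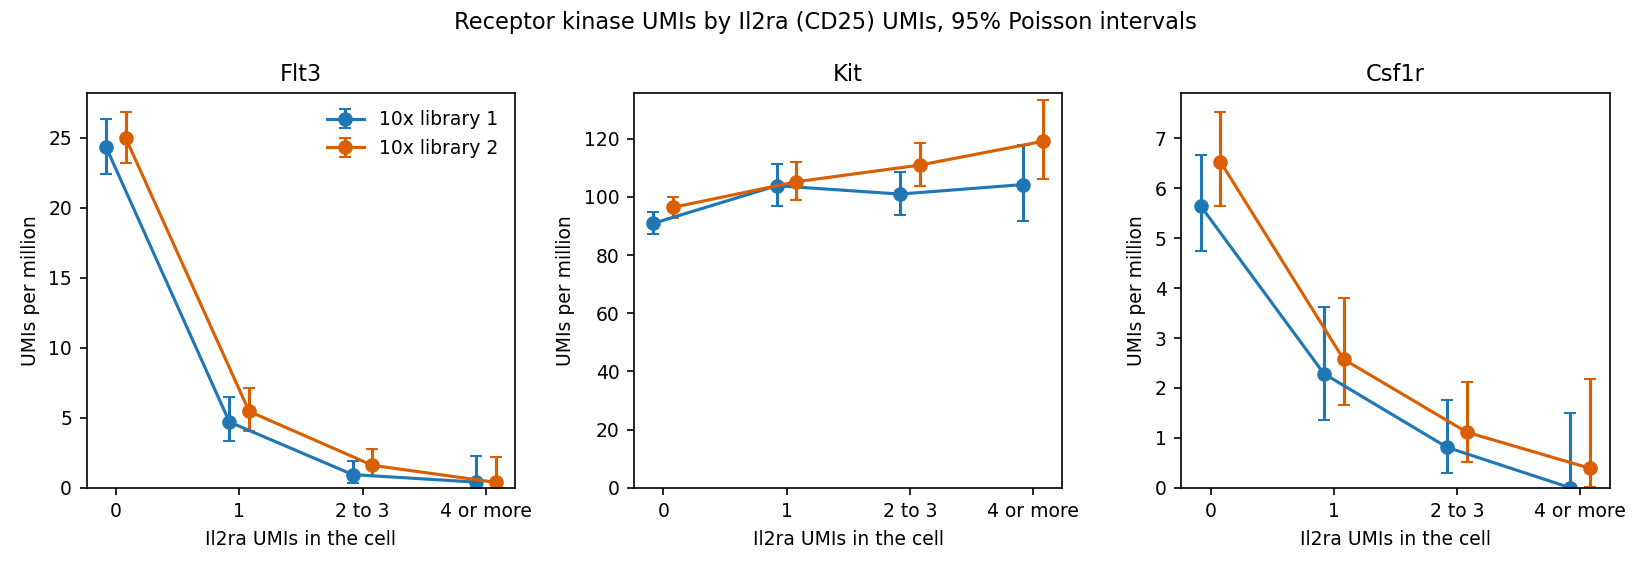
CPM of Flt3, Kit and Csf1r in droplet cells grouped by Il2ra UMIs after thinning (0, 1, 2 to 3, 4 or more), for both libraries, with exact Poisson 95% intervals. Flt3 falls from 24.3 and 24.9 to 0.407 and 0.391 and Csf1r falls alongside, while Kit stays between 90.9 and 119.1.

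Clustering was done without the 3 genes and gave 14 clusters of all kept cells, so that member levels could be read across them as a description. Flt3 was highest in an early progenitor-like cluster of 1565 cells led by Hmga2, Ccnd1, Hoxa9 and Cd34 (35.6 and 40.8 CPM in the first and second library). It held 32.2% and 32.1% of all Flt3 UMIs with 12.6% and 11.3% of the cells. A further early progenitor-like cluster of 375 cells was led by interferon-response genes, Ifit1 and Isg15 among them, and had 24.1 and 36.5. In 2 unnamed clusters led by cell division genes, among them Ccnb2 and Ube2c, and in one led by Notch2 and Actb, Flt3 was 18.8 to 27.2. In one more, of 775 cells led by Hist1h2ap and Hist1h1b, it was 1.71 and 0.931. In an unnamed cluster of 2100 cells led by Cd7, Ccl5, Klrd1 and Lag3, genes also used by natural killer cells, Flt3 was 16.3 and 19.5.

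Flt3 then dropped to 2.42 and 3.37 in an unnamed cluster of 1629 cells whose leading genes included Fgf3, Deptor and Tyrobp. In the CD25+ DN2-like clusters it was 0.408 and 0.641 (1256 cells, led by Ung, Il2ra, Esm1 and Bcl11b) and 0 and 0 (680 cells, led by Il7r, Cpa3 and Bcl11b).

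Kit followed another order. In the larger clusters it was highest where Flt3 was intermediate or already low: 133.1 and 144.5 in the Cd7 cluster, 137.6 and 140.6 in the Fgf3 cluster, and 137.3 and 126.8 in the Il7r and Cpa3 cluster. In the early progenitor-like cluster with most Flt3 it was 82.1 and 84.97. Low Flt3 did not always go with high Kit. Kit was 74.5 and 86.3 in the cluster of 775 cells led by Hist1h2ap. In the CD25+ DN2-like cluster of 1256 cells it was 93.5 and 102.1. The committed T-like clusters of 920 and 394 cells, led by Cd3d, Cd3g and Ptcra and by Lef1 and Sh2d1a, had 14.04 and 16.9, and 9.80 and 19.1, although surface Kit was gated. The third committed T-like cluster, of 86 cells, had 64.1 and 119.8.

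Csf1r was highest in 56 and 57 granulocyte-like cells led by Prtn3, Elane and Ctsg, at 18.9 (10.4 to 31.8) and 17.5 (7.57 to 34.6) CPM. Those cells held 8.48% and 2.99% of all Csf1r UMIs. The early progenitor-like cluster with most Flt3 had 7.41 and 12.5 and held 26.7% and 31.3%. The Cd7 cluster had 8.27 and 12.2 and held 24.2% and 27.2%. Most Csf1r molecules were thus outside the granulocyte-like cells. In both CD25+ DN2-like clusters Csf1r was at most 0.813.

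**Figure D4:**
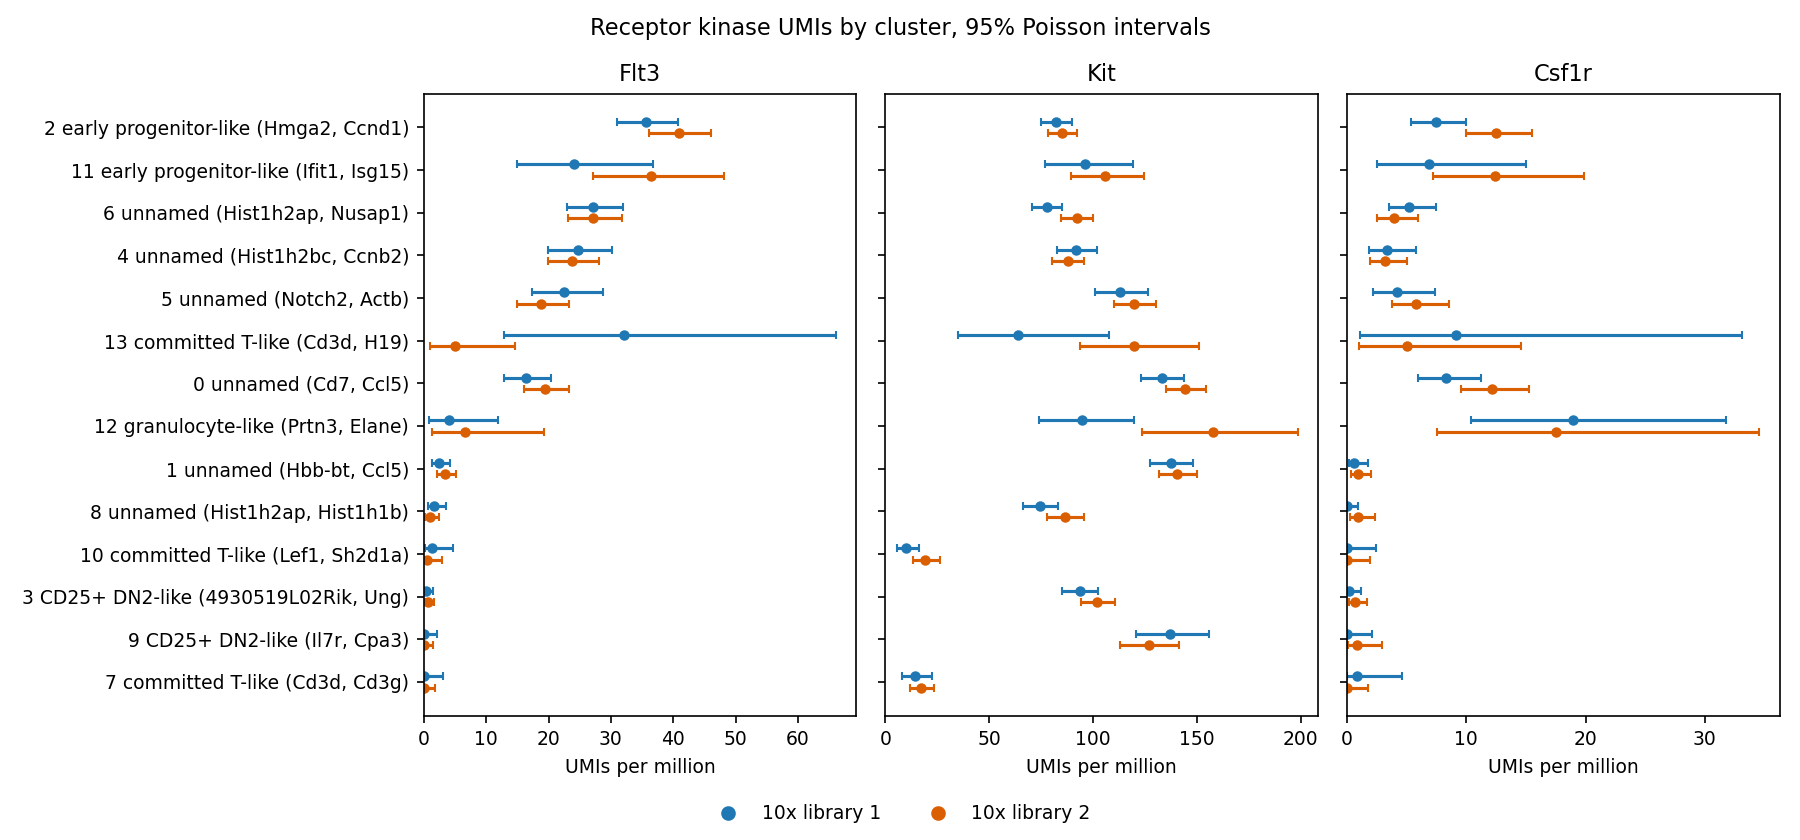
CPM of Flt3, Kit and Csf1r in 14 clusters of droplet cells made without these genes, ordered by Flt3, for both libraries, with exact Poisson 95% intervals. Flt3 is highest in the early progenitor-like cluster (35.6 and 40.8), and Csf1r is highest in the granulocyte-like cells. Kit peaks in some of the clusters with less Flt3 and drops in the committed T-like clusters of 920 and 394 cells.

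Shares of thinned cells were read against the 920-cell committed T-like cluster, which should lack Flt3 and Csf1r. It had Flt3 in 0% of cells in both libraries, Csf1r in 0.730% and 0%, and Kit in 4.38% and 4.05%, and its cells were shallower before thinning (medians of 3861 and 3211 UMIs). The early progenitor-like cluster had Flt3 in 11.9% and 13.8%, Kit in 26.96% and 28.5%, and Csf1r in 2.29% (1.26 to 3.81) and 5.67% (4.28 to 7.36). In the first library the Csf1r intervals of these clusters overlapped, so that share was not separated from the committed T-like one. A smaller committed T-like cluster of 86 cells (19 and 67 in the libraries, medians of 12011 and 8698 UMIs) held Flt3 at 32.1 and 4.99 CPM. Doublets were not removed, and their part in that value was not tested.

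The share of cells with Csf1r was higher among cells with Flt3 in both libraries, but after thinning it was separated only in the second. After thinning, Csf1r had a UMI in 3.23% (1.40 to 6.26) and 4.80% (2.95 to 7.31) of the cells with Flt3. Of those without, 1.39% (1.07 to 1.79) and 1.86% (1.55 to 2.22) had one. The intervals of the first library overlapped, with 8 cells that held both genes. Kit was found in 25.8% and 28.1% of the cells with Flt3 and in 32.5% and 33.2% of those without. Unthinned, the Kit shares were 50.8% and 44.9% with Flt3 and 52.9% and 44.4% without, so no order is read for Kit. All 3 genes were found together in 2 and 6 thinned cells.

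Cells with a Csf1r UMI were compared for markers of other lineages, as CPM over unthinned counts. The summed granulocyte genes stood at 1104 and 794 against 291 and 277. The early progenitor genes stood at 1508 and 1634 against 989 and 1031, and the committed T genes at 303 and 366 against 903 and 1091. The 14 monocyte, macrophage and dendritic genes stood at 73.6 and 73.3 against 30.3 and 29.7. A set of 9 genes that define macrophages and dendritic cells stood at 6.75 and 8.55 against 3.70 and 4.72, from only 10 and 14 UMIs in the cells with Csf1r. That set had a UMI in 5.41% (2.36 to 10.4) and 4.80% (2.50 to 8.23) of them, against 2.94% (2.48 to 3.46) and 2.85% (2.50 to 3.23), so it was not separated. The cells with Csf1r were higher in progenitor and granulocyte genes and in the 14-gene sum, and lower in T genes, in both libraries. Ctss, of those 14, was also a leading gene of the early progenitor-like cluster with most Flt3, and its part in the sum was not tested.

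The plate cells, sequenced one by one along whole transcripts, gave higher detection. Among cells with at least 1000 genes above 1 FPKM, Kit was above 1 FPKM in 83.8% (exact 95% interval 78.3 to 88.4), Flt3 in 79 cells (35.6%, 29.3 to 42.3) and Csf1r in 34 (15.3%, 10.8 to 20.7). They count as 1 sample. In 98 cells with neither Il2ra nor Bcl11b, Flt3 was detected in 66.3%, in 94 cells with Il2ra alone in 12.8%, and in 29 cells with both in 3.45%. Csf1r was detected in 22.4%, 10.6% and 6.90%, and Kit in 84.7%, 84.04% and 79.3%. Flt3 was thus found in fewer cells from class to class, while the share with Kit differed by less than its intervals.

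In the cells above 1 FPKM, the median was 17.2 FPKM for Csf1r (highest 146.9), 16.7 for Flt3 (highest 150.9) and 33.5 for Kit. In all cells above 0 FPKM, the medians were 8.44 for Csf1r, 14.4 for Flt3 and 30.01 for Kit, so the first pair was alike only above the threshold. Csf1r was detected in 22.8% (14.1 to 33.6) of the cells with Flt3 and in 11.2% (6.53 to 17.5) of those without, with intervals that overlapped. All 3 were found in 18 cells, and 0 cells held Flt3 and Csf1r without Kit, which allows a share of up to 1.65%. Detection differed between the 4 series of library numbers of the plate: Flt3 ranged from 32.6% to 52.2%, Kit from 73.9% to 91.3% and Csf1r from 8.42% to 30.4%.

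**Figure D5:**
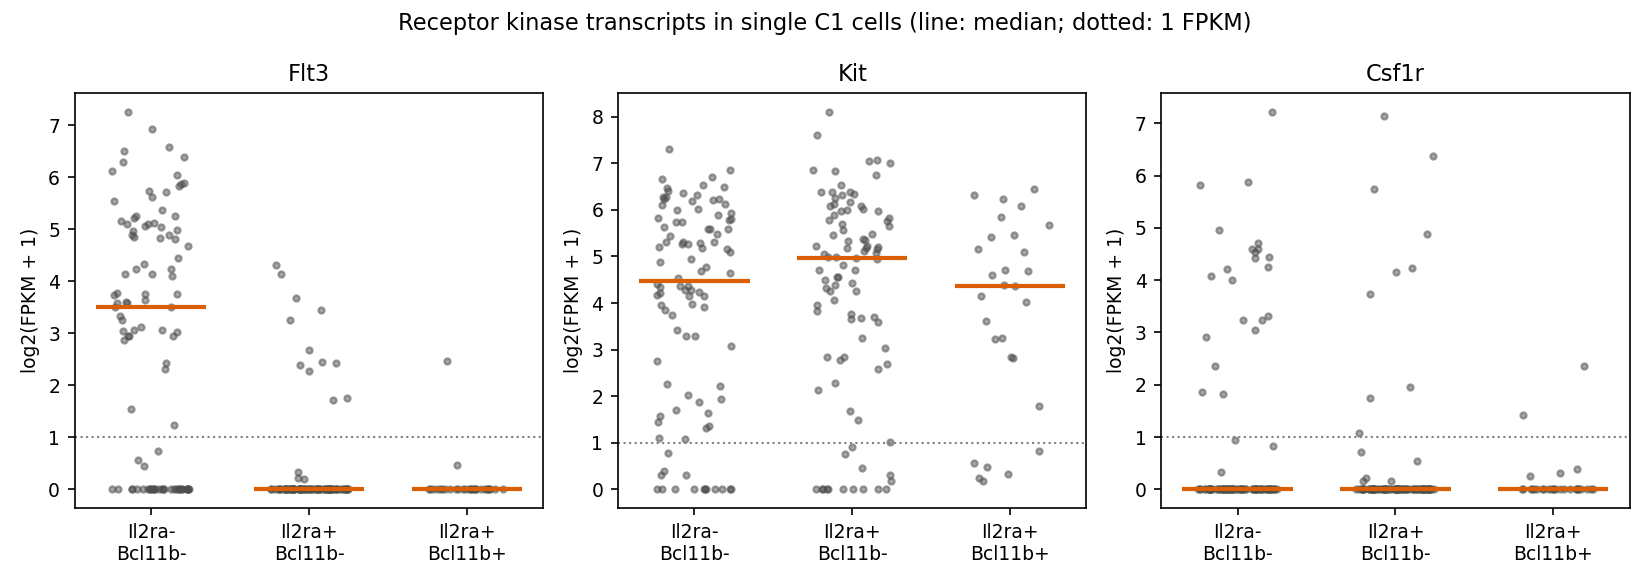
Log2(FPKM + 1) of Flt3, Kit and Csf1r in each plate cell, in 98 cells with neither Il2ra nor Bcl11b, 94 with Il2ra alone and 29 with both. The solid line is the class median and the dotted line 1 FPKM. Most cells of the first class hold Flt3 and few of the others do, while Kit is present in most cells of every class.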

How the data were processed

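The bulk and plate tables hold FPKM values that the authors deposited. Per the submitters' processing notes they were made with STAR 2.4.0 and RSEM 1.2.25, with HOMER and edgeR 3.6.8 also named for the bulk table (builds mm10 and GRCm38). The droplet matrices hold UMI counts that the authors deposited, made with Cell Ranger 2.0 per the same notes. Members, gene lists and comparisons were chosen with earlier results of these data known.

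Bulk values were fitted with limma 3.58.1 (trend) on log2(FPKM + 1) over all 12 libraries, with population and library preparation as terms, for genes above 1 FPKM in at least 2 libraries. Replicate numbers come from the titles. Those of the SMART-Seq v4 libraries hold no number, so these libraries were counted as sharing 1 number, by preparation. Between the DN2a fractions the deviations of the 3 pairs so numbered correlated at 0.508 to 0.823. A fit with the number as a block is therefore given beside the results it changes. Adjusted p-values are Benjamini-Hochberg over 12112 genes. Low FPKM values were whole multiples of 1 read (100% within 0.1 read), and those reads entered an edgeR 4.0.16 quasi-likelihood test as an alternative. Genes nearest to a member were the 5 with the highest correlation over the 12 libraries. They were sought among 8597 genes (8598 for Csf1r) with a mean log2(FPKM + 1) of at least 2. Genes with provisional names, such as Gm or Rik ones, were left out. Named list genes were the called ones with the smallest adjusted p, and some genes of the lists are not reported here. Droplet cells needed 1000 genes and under 10% mitochondrial UMIs. Clusters used scanpy 1.11.5 and leidenalg 0.10.2 (2000 variable genes, 30 components, 20 neighbours, resolution 1), with the 3 members left out, and were named only from marker lists. No doublet caller was run. The main limma fit and the clustering were checked on simulated data, and the alternative fits were not. Other settings tried were the pseudocount, the filter, the scaling, the preparation term, block terms, left-out libraries, thinning and class limits.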

Additional observations from a re-analysis of the deposited data

How the results depend on the processing

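Among the values of the 3 genes in bulk comparisons under other settings, 25 lost a call (the sort-set Flt3 difference included), 7 gained one, 15 changed sign and the rest kept their direction and side of the threshold. Every Flt3 and Csf1r difference kept its sign under all settings run. For Flt3- against Flt3+ ETP, the Flt3 difference, which the sort sets, was -1.66 with a pseudocount of 0.1, -1.63 without the filter, -1.51 with quantile scaling, -1.47 with median-ratio scaling, -1.63 without the preparation term, -1.97 in NEBNext libraries alone, -1.53 with edgeR and -1.28 without both ETP libraries that stood apart, a setting chosen after seeing the data. Csf1r lost its call for Bcl11b- DN2a against Flt3- ETP at -1.69 without the preparation term and -1.46 without both of those libraries, and against total ETP at -2.29 without the preparation term. For Bcl11b+ against Bcl11b- DN2a, Csf1r lost its call at -1.12 without the filter, with quantile scaling, without the preparation term or with the compared populations alone, at -1.10 with median-ratio scaling and at -1.38 in NEBNext libraries. There Flt3 gained a call at -2.07 with a pseudocount of 0.1 and -2.46 with edgeR. Kit changed sign against total ETP at 0.0014 with median-ratio scaling, 0.13 in NEBNext libraries or the compared populations alone, 0.02 (0.024999) with edgeR and 0.09 (0.093999) without both libraries, and for Bcl11b+ DN2a against Flt3+ ETP at 0.0059 without the preparation term and 0.13 in NEBNext libraries. The causes were not tested.

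Outside the DN2a fractions the replicate numbers were not taken to pair libraries: over all same-numbered pairs deviations correlated at -0.711 to 0.823, median 0.187. With the replicate number as a block, Bcl11b+ against Bcl11b- DN2a called Flt3 at -0.94 and Kit at -0.67, and Kit against total ETP was 0.01 (0.010565). With the library-number series as a block, the values were -0.94, -0.67 and 0.30. Of all genes tested, the replicate block called 2.25% between Flt3 fractions of ETP (without it 0.685%), 6.89% from Flt3- ETP to Bcl11b- DN2a (3.97%), 4.81% between the DN2a fractions (2.79%) and 31.8% from total ETP to Bcl11b- DN2a (15.6%). With the series block these were 4.85%, 7.74%, 5.63% and 7.76%.

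Leaving out 1 library at a time gave, between Flt3 fractions of ETP, 0.116% to 13.3% of genes called, Flt3 at -1.93 to -1.32, Csf1r at -0.80 to -0.11 and Kit at -0.52 to 0.12, which turned sign without the second Flt3+ library (0.12) and without the first Flt3- library (0.05). From Flt3- ETP to Bcl11b- DN2a it gave 1.35% to 21.1%, Kit at 0.39 to 0.89 and Csf1r at -2.03 to -1.62. Between DN2a fractions it gave 1.33% to 2.11%, Flt3 at -1.20 to -0.61, Kit at -0.87 to -0.47 and Csf1r at -1.46 to -0.89. From total ETP to Bcl11b- DN2a it gave 1.71% to 23.9%, Kit at -0.24 to 0.13 and Csf1r at -2.15 to -1.87. From Flt3+ ETP to Bcl11b+ DN2a it gave 5.76% to 10.6% and Kit at -0.54 to 0.10. Where 1 library of a group was left, it was assumed to vary like the other groups.

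Without the preparation term the genes called fell to 0.0826%, 0.289%, 0.033%, 0.454% and 1.87% in these 5 comparisons (11.3% in the last with it). In NEBNext libraries they were 0.0252%, 8.69%, 0.361%, 2.8% and 4.5%. Between Flt3 fractions they were 0.421% with a pseudocount of 0.1, 0.454% with quantile scaling, 6.56% with the compared populations alone, 0.229% with edgeR and 0.271% without both libraries that stood apart. Without those libraries 1.62% were called from Flt3- ETP to Bcl11b- DN2a. Without the filter, over 19784 genes, 0.981% were called between DN2a fractions and 4.04% from total ETP to Bcl11b- DN2a. With the compared populations alone, 1.47% were called between DN2a fractions and 7.51% from Flt3+ ETP to Bcl11b+ DN2a. Quantile scaling moved the share of calls that were higher from 61.4% to 90.9% between Flt3 fractions, from 62.5% to 51.3% from total ETP to Bcl11b- DN2a and from 30.1% to 42.8% from Flt3+ ETP to Bcl11b+ DN2a.

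Depth set the droplet shares. Thinned to 2000 UMIs, Flt3 was in 2.44% and 3.25% of cells, Kit in 17.7% and 18.6%, and Csf1r in 0.984% and 0.997%. Without thinning they were 10.5% and 8.50%, 52.7% and 44.4%, and 3.03% and 2.96%. Kit was above 0 FPKM in 90.5% and above 5 FPKM in 74.8% of plate cells.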
